A study of Mus musculus with 36 samples.

Results

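The effect of a 60% high-fat diet (60% HFD) on epididymal white adipose tissue (eWAT), the visceral fat pad attached to the epididymis, was examined in wild-type (WT) C57BL/6 male mice that carry no ligature label. RNA-seq values of 3 WT mice fed a 60% HFD for 10 weeks were compared with those of 3 WT mice fed a normal diet (ND) for the same time, which makes 6 of the 36 libraries of the series. The other libraries came from WT mice fed a 40% HFD, from Adipoq-CCL19-KI mice, in which the chemokine gene Ccl19 is overexpressed from the adipocyte promoter Adipoq, and from mice with a tooth ligature that induces periodontitis, for 12 groups of 3 mice in all. Mice were 6 weeks old when feeding began and 16 weeks old at collection. The absence of a ligature rests on the labels alone, because the study's methods describe eWAT sequencing only for ligatured mice.

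White adipocytes store dietary fat as triglyceride and release it as fatty acids, and they secrete hormones such as leptin and adiponectin. Long feeding of a high-fat diet is known to enlarge adipocytes in this depot and to draw in macrophages that take up lipid. The liver, in contrast, makes albumin, apolipoproteins, fibrinogen and most acute phase proteins, and the kidney tubule expresses transporters and enzymes that adipose tissue lacks, so that genes of both organs serve as markers of cells outside the fat pad.

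Values are normalized CPM, read counts scaled to a common library size, and the 6 libraries held between 12822163 and 19786434 reads, so that 1 read was worth 0.05 to 0.0834 CPM. A gene was called a differentially expressed gene (DEG), and is said below to have risen or fallen, when limma gave an unadjusted p of 0.05 or less and the ratio was at least 1.5 or at most 0.67. Fold changes are on the scale of log2(CPM + 1) and understate the change of low genes, and the adjusted p is that of Benjamini and Hochberg over all 16923 genes tested. No source names separate cages or litters, so the p-values measure the spread between mice only. That spread was estimated over all 18 libraries without a ligature, not over the 6 compared mice alone.

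One ND library was at odds with its genotype label. Ccl19 stood at 4.51, 19.2 and 1.15 CPM in ND replicates 1 to 3 and at 1.21, 1.42 and 1.07 CPM in the 60% HFD mice. The predicted gene Gm2564, which ran with Ccl19 over the knock-in libraries, stood at 0, 41.9 and 0 CPM in the ND mice and had no read in the 60% HFD mice. ND replicate 2 thus carried the levels found in the knock-in mice, and the comparison was run with and without it. The library labelled knock-in, 60% HFD, replicate 3 showed the reverse, with 5.57, 11.8 and 0.687 CPM of Ccl19 in the 3 mice of its group. ND replicate 2 also held epididymal transcripts, of which Crisp1, a secreted protein of the epididymal epithelium, stood at 2.83, 1532 and 58.3 CPM in the ND mice.

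Over all 16923 genes tested, 1156 genes rose and 402 fell, of which 365 (2.16%) and 15 (0.0886%) had an adjusted p under 0.05. Without ND replicate 2 the counts were 1091 (6.53%) and 268 (1.6%), with 935 and 141 genes called in both. Without 60% HFD replicate 3 they were 804 and 224, and 57 and 5 had an adjusted p under 0.05.

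The leading change under the 60% HFD was the appearance of liver transcripts in the eWAT libraries. All 17 hepatocyte genes tested, of 18 listed, were DEGs that rose, where 6.83% of the genes tested rose and 2.38% fell. Their median log2 fold change was 8.81, against -0.05 over all genes tested, and 8.86 without ND replicate 2. Together these genes took 1.41%, 3.69% and 4.74% of the reads in 60% HFD replicates 1, 2 and 3, against 0.0136%, 0.121% and 0.156% in the ND mice. In bulk tissue, fewer cells of a type and less RNA per cell cannot be told apart.

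Alb, which encodes albumin, stood at 5.55, 7.85 and 13.4 CPM in ND replicates 1 to 3 and at 5796, 17090 and 24130 CPM in the 60% HFD mice. Its log2 fold change was 10.47 ± 1.57 SE, adjusted p = 0.00554, and 10.43 without ND replicate 2 (adjusted p = 0.0296). Every 60% HFD mouse stood far above every ND mouse.

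Apob, the scaffold of very low density lipoprotein, rose from 0.979, 0.668 and 0.450 CPM to 2012, 4587 and 6929 CPM, a log2 fold change of 11.21 ± 1.58 SE, adjusted p = 0.00554. Serpina1c, a member of the α1-antitrypsin family, went from 0.326, 0 and 0.250 CPM to 671, 2316 and 3076 CPM, with a log2 fold change of 10.48 ± 1.42 SE, adjusted p = 0.00467. The fibrinogen chain genes Fga and Fgb, named after their values were seen, had log2 fold changes of 7.97 ± 1.46 and 8.81 ± 1.37 (SE). In each of these genes replicate 1 was the lowest and replicate 3 the highest of the 60% HFD mice, and that order held for all 17 hepatocyte genes, with replicate 3 at a median of 4.16 times replicate 1.

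**Figure D1:**
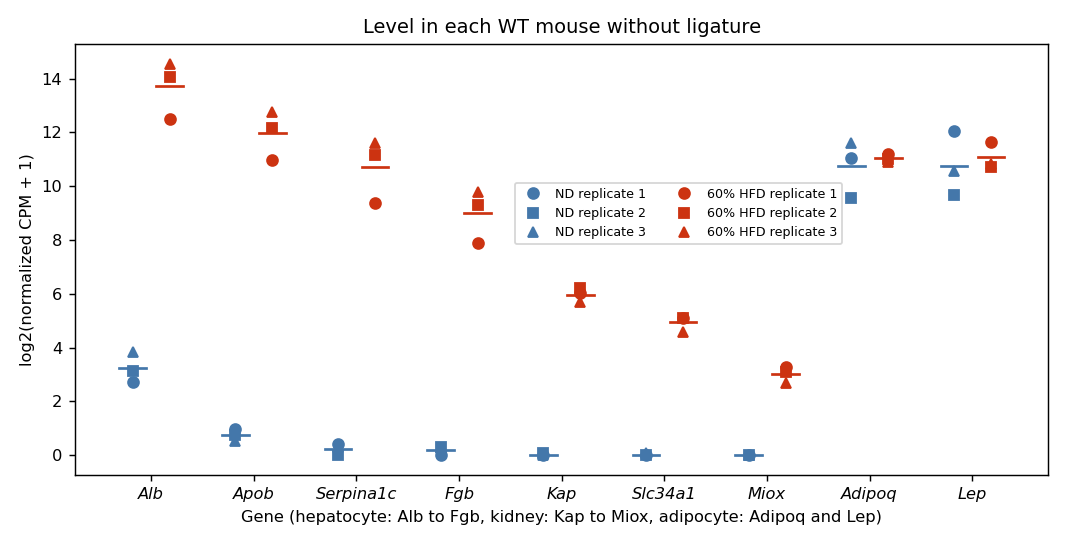
Level of 9 genes in each of the 6 WT mice, as log2(normalized CPM + 1); blue marks are the 3 ND mice, red marks the 3 mice fed a 60% HFD, symbols give the replicate and bars the group mean. The hepatocyte and kidney genes stand apart between the diets in every mouse, while the adipocyte genes Adipoq and Lep overlap.

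The 12 largest rises, taken among DEGs of at least 5 CPM in the higher group whose groups did not overlap and which stayed DEGs without ND replicate 2, were all genes known for high expression in the liver. Beside Apob, Serpina1c and Alb they included the apolipoproteins Apoa1 and Apoa2, the methionine cycle enzymes Mat1a and Bhmt, the protease inhibitor Mug1 and the major urinary protein genes Mup7, Mup19 and Mup22. Mup7 went from 0.163, 0.111 and 0 CPM to 576, 3202 and 2420 CPM, with the smallest adjusted p of the 12 (0.000516). Major urinary protein and Serpina1 genes are near-identical copies, so the split of reads among them is uncertain. The other 7 of these had log2 fold changes from 9.56 (Apoa2) to 10.24 (Mat1a), and their adjusted p-values lay between 0.00214 and 0.00737.

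The promoters of 4 of the risen liver genes are shown, chosen because each holds a match of the motif given next, which most windows of the hepatocyte list lack. Each window holds 250 bases before and 50 bases from the start of the gene, in RefSeq's GRCm38.p6, read 5′ to 3′ on the strand of the gene. Capitals mark GTTAAT or its reverse complement ATTAAC, the half-site of the palindrome bound by hepatocyte nuclear factor 1, which directs many liver genes. The windows lie at chr5:90460620-90460919 (Alb, plus strand), chr12:103904901-103905200 (Serpina1c, minus strand), chr3:83025903-83026202 (Fga, plus strand) and chr3:83049814-83050113 (Fgb, minus strand).
Alb: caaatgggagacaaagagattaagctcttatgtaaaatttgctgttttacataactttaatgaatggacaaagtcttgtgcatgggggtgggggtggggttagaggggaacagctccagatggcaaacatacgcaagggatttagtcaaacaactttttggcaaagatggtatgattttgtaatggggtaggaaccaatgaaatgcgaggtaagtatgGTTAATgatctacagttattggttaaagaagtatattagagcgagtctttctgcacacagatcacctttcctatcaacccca
Serpina1c: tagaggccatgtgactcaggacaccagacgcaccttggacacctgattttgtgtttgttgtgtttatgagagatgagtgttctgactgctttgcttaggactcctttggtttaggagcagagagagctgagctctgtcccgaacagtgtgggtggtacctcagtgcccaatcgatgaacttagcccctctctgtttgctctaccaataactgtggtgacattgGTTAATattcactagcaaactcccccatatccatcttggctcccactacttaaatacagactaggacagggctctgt
Fga: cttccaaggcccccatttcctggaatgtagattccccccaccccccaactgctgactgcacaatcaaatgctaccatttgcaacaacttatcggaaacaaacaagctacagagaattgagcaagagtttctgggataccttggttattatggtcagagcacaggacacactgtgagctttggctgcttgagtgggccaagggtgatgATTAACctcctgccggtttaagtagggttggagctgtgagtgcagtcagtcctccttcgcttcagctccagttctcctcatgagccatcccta
Fgb: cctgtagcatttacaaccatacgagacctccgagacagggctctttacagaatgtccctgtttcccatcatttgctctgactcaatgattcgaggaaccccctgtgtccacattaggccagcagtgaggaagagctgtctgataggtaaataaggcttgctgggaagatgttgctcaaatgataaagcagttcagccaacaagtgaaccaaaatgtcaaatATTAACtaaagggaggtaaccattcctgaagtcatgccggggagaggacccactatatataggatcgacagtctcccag

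These letters were found on either strand in 5 of the 15 windows that the table holds for 14 genes of the hepatocyte list, or 33.3%. They were found in 5.15% of the 15362 windows of genes tested and in 7.1% of all 32851 windows. Over the 839 risen genes with a window, 129 of 1072 windows, or 12%, held them. A match is a description of the window and not of a bound site.

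Acute phase genes rose in part. Of 13 acute phase genes tested, 5 rose and none fell, with a median log2 fold change of 1.35. Saa4, a serum amyloid A apolipoprotein, stood at 0.326, 0.111 and 0.150 CPM in the ND mice and at 25.8, 89.8 and 138 CPM in the 60% HFD mice, with a log2 fold change of 5.87 ± 0.99 SE, adjusted p = 0.0067. Itih4, a plasma protease inhibitor family member, changed by 7.24 ± 1.30 SE, adjusted p = 0.00775. Crp, the gene of C-reactive protein, stood at 0, 0 and 0.05 CPM in the ND mice and at 25.3, 63.7 and 97.3 CPM in the 60% HFD mice (adjusted p = 0.00846). Onecut1, a transcription factor of the hepatocyte lineage, had no read in the ND mice and 2.35, 7.42 and 28.8 CPM in the 60% HFD mice, at least 80.3-fold higher by a floor of 3 reads over the 3 ND libraries.

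Prox1, a transcription factor of both hepatocytes and lymphatic endothelium, went from 0.924, 5.01 and 1.45 CPM to 45.2, 116 and 106 CPM (log2 fold change 4.78 ± 1.15 SE, adjusted p = 0.0425). In the endothelial list only Prox1 and Kdr, the receptor of vascular endothelial growth factor, rose among 18 genes tested, and none fell. Complement genes followed in part, with 4 of 16 rising and none falling. The complement protease gene Cfi rose by 5.42 ± 0.96 SE, adjusted p = 0.00749. C3, the central complement component, stood at 3299, 1254 and 1737 CPM under the ND and at 3476, 4588 and 6031 CPM under the 60% HFD (log2 fold change 1.25 ± 0.53 SE, adjusted p = 0.357). Cfb, a protease of the alternative pathway, had a log2 fold change of 1.03 ± 0.40 SE, adjusted p = 0.302, and neither C3 nor Cfb was a DEG without ND replicate 2.

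Kidney tubule genes formed a second group. Of 11 tested, 9 rose and none fell, and the median log2 fold change was 2.20. Kap, an androgen-regulated gene of the proximal tubule, stood at 0, 0.0557 and 0 CPM in the ND mice and at 64.2, 73.2 and 50.1 CPM in the 60% HFD mice (adjusted p = 0.0306, and 0.0942 without ND replicate 2). Slc34a1, the renal phosphate transporter, stood at 0, 0 and 0.05 CPM and 33.5, 33.5 and 23.0 CPM (adjusted p = 0.00934). Miox, the renal enzyme of inositol breakdown, had no read under the ND and 8.72, 7.59 and 5.45 CPM under the 60% HFD, at least 45.3-fold higher by the same floor. The organic anion transporter gene Slc22a6 stood at 0, 0.0557 and 0 CPM and 7.98, 9.59 and 5.22 CPM. Genes of exocrine pancreas had a mean log2 value of 2.00 in 60% HFD replicate 2, against 0.51 and 0.58 in replicates 1 and 3. By share of reads ND replicate 1 (0.00623%) stood above 60% HFD replicate 2 (0.0057%). None of the 11 tested was a DEG by limma, and 5 rose by edgeR. In all 9 risen kidney genes 60% HFD replicate 3 was the lowest of the 3 mice, whereas it was the highest in all 17 hepatocyte genes. The kidney list took 0.0201% to 0.0274% of the reads in the 60% HFD mice, against 0.00673% to 0.00973% in the ND mice.

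**Figure D2:**
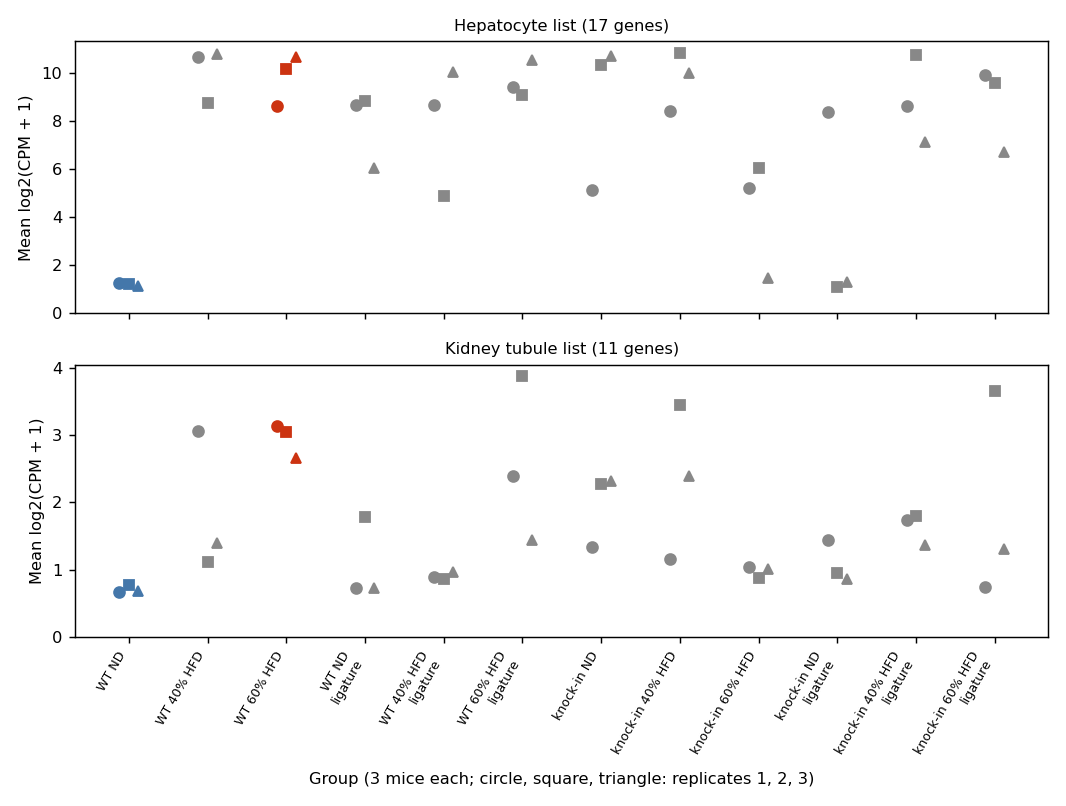
Mean log2(normalized CPM + 1) of the 17 hepatocyte genes (top) and 11 kidney tubule genes (bottom) in all 36 libraries, by group of 3 mice; blue is WT ND, red is WT 60% HFD, and symbols give the replicate. The 3 WT ND mice lie at 1.14 to 1.25 in the hepatocyte list, and of the other 33 libraries only replicates 2 and 3 of knock-in ND ligature and replicate 3 of knock-in 60% HFD lie near them.

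The hepatocyte level was not a feature of the high-fat groups alone. Its mean log2 value was 1.25, 1.24 and 1.14 in the WT ND mice and 8.65, 10.19 and 10.68 in the WT mice fed a 60% HFD. It was 10.68, 8.77 and 10.79 in WT mice fed a 40% HFD, and 8.70, 8.85 and 6.07 in ligatured WT mice fed an ND. Among knock-in mice without a ligature it was 5.13, 10.33 and 10.71 under the ND and 5.22, 6.05 and 1.48 under the 60% HFD. The WT ND mice thus stood apart from the ligatured WT mice fed the same diet as well as from the mice fed a 60% HFD.

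To see which other DEGs moved with the liver transcripts, each gene was correlated with the hepatocyte level over the 12 libraries without a ligature that did not enter the comparison. The points share a common preparation but differ in depth and in the content of liver transcripts, so the Pearson r is a description. Of 877 genes with r of 0.8 or more, 705 (80.4%) rose in the WT comparison and none fell. Of 2000 genes with r from 0.5 to 0.8, 351 (17.6%) rose and 5 fell. Among the 14046 genes with lower r, 100 (0.712%) rose and 397 (2.83%) fell. Of the 365 genes that were higher at an adjusted p under 0.05, 330 were in the first class and 5 in the last. With the hepatocyte level as a covariate 0 genes had an adjusted p under 0.05 by limma, and 1623 an unadjusted p under 0.05. That level was built from genes that are DEGs here. It lay at 1.14 to 1.25 in the ND mice and 8.65 to 10.68 in the 60% HFD mice. The fit can thus hardly separate the diet from the hepatocyte level, and no conclusion is drawn from the 0. The r classes and the covariate were set after the values were seen.

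**Figure D3:**
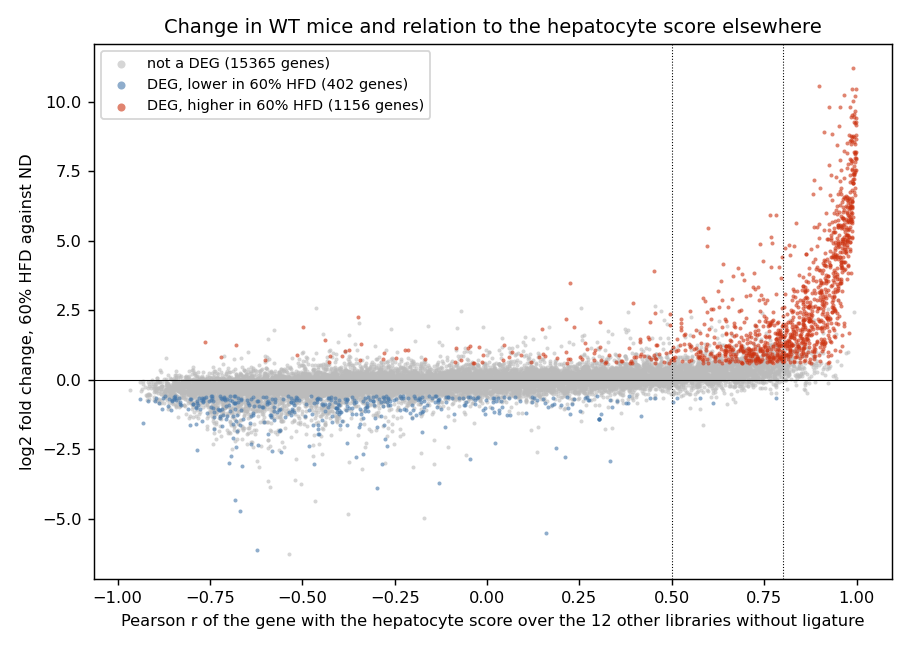
Log2 fold change between 60% HFD and ND in WT mice (vertical axis) against the Pearson r of the gene with the hepatocyte level over 12 other libraries (horizontal axis), with DEGs in red (higher) and blue (lower) and dotted lines at 0.5 and 0.8. Of the 1156 risen genes, 705 lie to the right of the second line, and 397 of the 402 fallen genes lie to the left of the first.

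Genes of fatty acid oxidation rose together. Of 20 genes for oxidation enzymes and acyl-CoA thioesterases, 15 rose and none fell, with a median log2 fold change of 1.11. Without ND replicate 2 the count was 9, and without 60% HFD replicate 3 it was 5. Acot3, a peroxisomal acyl-CoA thioesterase, stood at 0, 0.111 and 0 CPM in the ND mice and at 31.9, 52.2 and 72.2 CPM in the 60% HFD mice (adjusted p = 0.0114). Ppara, the nuclear receptor that drives these genes, went from 4.79, 8.91 and 10.5 CPM to 51.1, 144 and 186 CPM (log2 fold change 3.69 ± 1.03 SE, adjusted p = 0.0929). The carnitine-acylcarnitine carrier gene Slc25a20 stood at 74.0, 38.1 and 55.7 CPM and 93.1, 127 and 164 CPM, a log2 fold change of 1.19 ± 0.34 SE, adjusted p = 0.0985. All 15 genes had an r of at least 0.5 with the hepatocyte level in the other libraries, and 60% HFD replicate 3 was the highest mouse in each of them. The part of the liver transcripts in these rises was not tested.

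Other metabolic lists changed at few genes. In de novo lipogenesis Acly, which makes cytosolic acetyl-CoA from citrate, fell from 388, 477 and 622 CPM to 270.1, 220.1 and 176 CPM without overlap (log2 fold change -1.15 ± 0.35 SE, adjusted p = 0.147). Elovl5, a fatty acid elongase, rose by 1.25 ± 0.44 SE, adjusted p = 0.228 with an r of 0.81. The other 13 lipogenic genes were not DEGs. Acaca, the acetyl-CoA carboxylase, stood at 262, 352 and 1075 CPM and 305, 246 and 218 CPM, and was a DEG (lower) without ND replicate 2. Cholesterol synthesis had 4 rising genes of 22, against 2 without 60% HFD replicate 3 or ND replicate 3, and 6 with 2 falling without ND replicate 2. Hsd17b7, a sterol reductase, stood at 20.7, 14.2 and 10.8 CPM and 28.6, 37.7 and 46.7 CPM (log2 fold change 1.27 ± 0.47 SE, adjusted p = 0.265). All 4 rising genes had an r of at least 0.5 with the hepatocyte level.

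In the list of lipolysis and lipid droplet genes 3 of 19 rose, among them Hilpda, a lipase inhibitor induced by hypoxia, at 13.3, 5.12 and 5.05 CPM and 13.7, 8.59 and 16.3 CPM, and Plin5, a droplet coat protein of oxidative tissues, at 9.19, 5.96 and 5.60 CPM and 14.6, 27.9 and 71.2 CPM. Neither was a DEG without ND replicate 2. Thermogenic genes included 3 that rose and 1 that fell of 13. Slc27a2, a very long chain acyl-CoA synthetase that the liver expresses too, rose by 7.39 ± 1.33 SE, adjusted p = 0.00806 and the elongase gene Elovl3 by 4.54 ± 1.15 SE, adjusted p = 0.0555, with r values of 0.93 and 0.86. Dio2, which activates thyroid hormone, stood at 3.64, 0.779 and 1.65 CPM under the ND and at 0.804, 0.584 and 0.768 CPM under the 60% HFD (log2 fold change -0.71 ± 0.33 SE, adjusted p = 0.415).

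The adipocyte's own transcripts showed no shared shift with all 3 ND mice. The 12 adipocyte markers took 2.89%, 1.60% and 2.90% of the reads in ND replicates 1 to 3. In the 60% HFD mice they took 2.56%, 1.90% and 1.72%, so the overlap rests on ND replicate 2. Of these markers none rose and 1 fell, and the median log2 fold change was -0.04. Without ND replicate 2 the calls were the same and the median was -0.32. Pparg, the master regulator of adipocyte differentiation, fell from 159, 107 and 214 CPM to 98.0, 90.8 and 87.3 CPM (log2 fold change -0.74 ± 0.32 SE, adjusted p = 0.378). Adipoq, the adiponectin gene, stood at 2103, 751 and 3115 CPM and 2354, 2076 and 1931 CPM, a difference of 0.31 ± 0.58 (SE). Chosen after their values were seen were Lep and Mest. Lep, the leptin gene, stood at 4217, 809 and 1513 CPM under the ND and 3204, 1689 and 1826 CPM under the 60% HFD, a difference of 0.31 ± 0.85 (SE). ND replicate 1 exceeded every 60% HFD mouse in Lep, and the same held for Mest, an imprinted gene tied to fat expansion, at 1315, 389 and 613 CPM against 1254, 792 and 956 CPM. The ND mice overlapped the 60% HFD mice in all 3 genes.

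**Figure D4:**
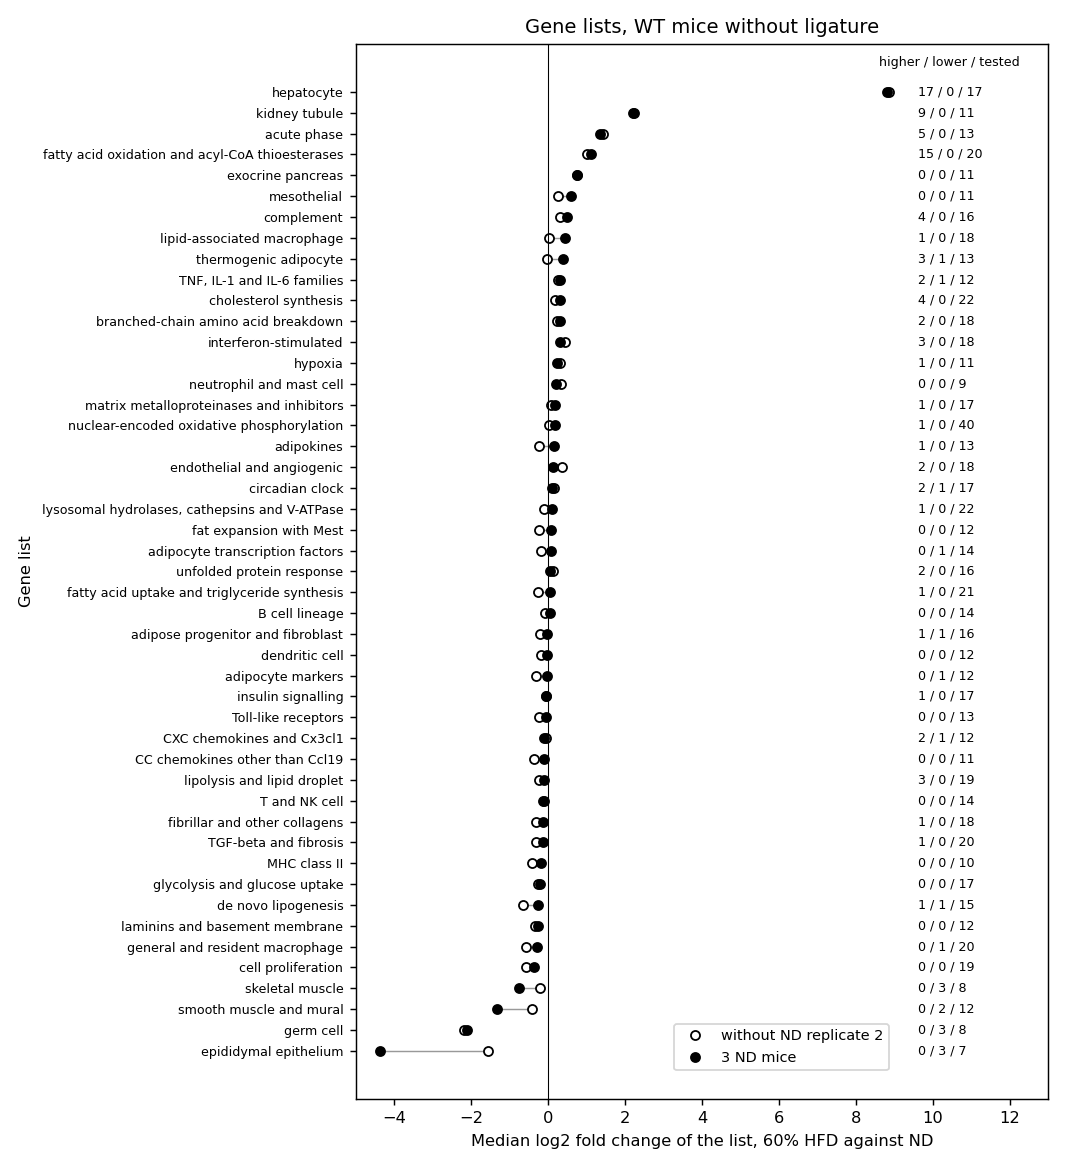
Median log2 fold change between 60% HFD and ND of 47 gene lists, filled with 3 ND mice and open without ND replicate 2, with the number of genes that rose, fell and were tested at the right. The hepatocyte median of 8.81 lies far to the right, the adipocyte and immune lists lie near 0, and the epididymal median moves from -4.38 to -1.57 without ND replicate 2.

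Macrophage and inflammatory genes gave few calls. Of 18 genes of lipid-associated macrophages, the cells that gather around lipid-laden adipocytes, 1 rose and none fell. Lipa, the lysosomal acid lipase, stood at 233, 46.8 and 76.8 CPM and 239, 158 and 198 CPM (log2 fold change 1.04 ± 0.46 SE, adjusted p = 0.393). Spp1, the osteopontin gene, stood at 12.9, 4.62 and 0.950 CPM in the ND mice and at 8.78, 4.84 and 5.30 CPM in the 60% HFD mice, a difference of 0.41 ± 0.74 (SE). ND replicate 1 was the highest of the 6 mice in Spp1, in the macrophage glycoprotein gene Gpnmb (275, 33.3 and 6.95 CPM against 201, 60.0 and 86.5 CPM) and in the elastase gene Mmp12 (207, 4.68 and 6.60 CPM against 108, 43.0 and 55.3 CPM). Without that mouse 7 of the 18 genes rose. Without ND replicate 2 none rose, and the median log2 fold change of the list went from 0.44 to 0.03. By edgeR none rose either.

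Il1b and Ccl2, which encode an inflammatory cytokine and the chemokine that recruits monocytes, had differences of 0.34 ± 0.29 and 0.02 ± 0.52 (SE), and their groups overlapped. Osmr, the receptor subunit of oncostatin M, fell from 60.0, 35.1 and 46.7 CPM to 31.2, 22.7 and 26.7 CPM (log2 fold change -0.77 ± 0.26 SE, adjusted p = 0.206). Lyve1, a hyaluronan receptor of resident macrophages and lymphatic vessels, fell from 78.1, 61.8 and 112 CPM to 25.6, 34.2 and 39.2 CPM (log2 fold change -1.30 ± 0.51 SE, adjusted p = 0.304). No gene of the lists of dendritic cells (12 tested), T and NK cells (14), B cells (14), Toll-like receptors (13) or MHC class II (10) was a DEG. Of 18 interferon-stimulated genes 3 rose, among them Irf7, a transcription factor of the interferon response, at 13.9, 19.6 and 16.0 CPM and 20.8, 26.3 and 34.6 CPM, and the ISG15 protease gene Usp18 at 3.64, 5.62 and 4.45 CPM and 6.71, 7.92 and 11.8 CPM. None rose without 60% HFD replicate 3.

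Among matrix genes, 1 of 18 collagens rose. Col18a1, whose product is cut to endostatin, changed from 286, 196 and 267 CPM to 354, 491 and 511 CPM (log2 fold change 0.85 ± 0.22 SE, adjusted p = 0.0588). Mmp11, a matrix metalloproteinase of fat and stroma, stood at 10.5, 5.46 and 4.60 CPM and 21.3, 12.3 and 11.8 CPM (log2 fold change 1.06 ± 0.34 SE, adjusted p = 0.164), and Thbs1, an activator of TGF-β, at 141, 284 and 113 CPM and 268, 431 and 284 CPM (log2 fold change 0.95 ± 0.40 SE, adjusted p = 0.352). Of the 17 clock genes 2 rose and 1 fell. Arntl, the positive arm of the clock, rose by 0.85 ± 0.25 and Bhlhe41, a repressor, fell by 1.15 on the log2 scale (23.9, 49.5 and 29.7 CPM against 14.9, 14.6 and 13.4 CPM).

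The other lists held few calls. In each of the lists of branched-chain amino acid breakdown (18 tested), unfolded protein response (16), CXC chemokines (12) and TNF, IL-1 and IL-6 families (12), 2 genes rose, and 1 fell in both of the last lists. In the lists of oxidative phosphorylation (40 tested), lysosome (22), fatty acid uptake and triglyceride synthesis (21), insulin signalling (17), adipokines (13) and hypoxia (11), 1 gene rose and none fell. In those of adipocyte transcription factors (14 tested) and general macrophages (20), 1 fell and none rose, and in the smooth muscle and mural list 2 of 12 fell. That last count was 1 without ND replicate 2, where the median log2 fold change went from -1.32 to -0.43, and 8 by edgeR. No gene was a DEG in the lists of cell proliferation (19 tested), glycolysis (17), laminins (12), genes that follow Mest in fat expansion (12), CC chemokines (11), mesothelium (11) or neutrophils and mast cells (9).

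A smaller set of DEGs had an r under 0.5 with the hepatocyte level, and the following were chosen after their values were seen. Peg10, a paternally expressed gene derived from a retrotransposon, stood at 25.3, 19.6 and 17.8 CPM in the ND mice and at 109, 70.0 and 138 CPM in the 60% HFD mice (log2 fold change 2.25 ± 0.58 SE, adjusted p = 0.0614, r = -0.35). Under a 40% HFD it stood at 23.0, 30.4 and 30.6 CPM in WT mice without a ligature, at 71.6, 49.7 and 42.6 CPM in ligatured WT mice and at 114, 107 and 43.8 CPM in ligatured knock-in mice, so that some ligatured mice lay within the range of the 60% HFD mice. In knock-in mice fed a 60% HFD without a ligature it stood at 107, 63.7 and 21.5 CPM. Peg3, another paternally expressed gene, went from 222, 129.6 and 82.7 CPM to 423, 259 and 304 CPM (log2 fold change 1.26 ± 0.40 SE, adjusted p = 0.153, r = 0.05). In both genes every 60% HFD mouse exceeded every ND mouse.

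Gdf15, a stress-induced cytokine that lowers food intake, stood at 1.69, 0.946 and 0 CPM and 6.10, 4.42 and 7.30 CPM (log2 fold change 1.98 ± 0.34 SE, adjusted p = 0.00682, r = 0.49). Pde4b, a cyclic AMP phosphodiesterase, stood at 5.44, 8.68 and 4.45 CPM and 14.5, 12.4 and 11.4 CPM (log2 fold change 0.97 ± 0.23 SE, adjusted p = 0.034, r = -0.28), and Zfp36, which speeds the decay of cytokine mRNAs, at 27.2, 25.2 and 25.5 CPM and 41.8, 50.1 and 60.5 CPM (log2 fold change 0.93 ± 0.22 SE, adjusted p = 0.0356, r = 0.42). The groups did not overlap in any of them, as in 24.3% of all genes tested. Without ND replicate 2 their log2 fold changes were 2.06, 1.21 and 0.91, with adjusted p-values of 0.0296, 0.0296 and 0.118. In ligatured WT mice fed an ND Pde4b stood at 13.65, 10.1 and 13.5 CPM and Zfp36 at 37.0, 35.2 and 33.4 CPM. In knock-in mice fed an ND without a ligature they stood at 17.2, 11.7 and 13.4 CPM and 31.5, 47.7 and 44.2 CPM. Some of these mice thus lay within the range of the 60% HFD mice in both genes, but none did in Gdf15.

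Cyp2b9, a cytochrome P450, stood at 0.217, 0 and 0 CPM in the ND mice and at 6.24, 6.84 and 29.7 CPM in the 60% HFD mice (log2 fold change 3.49 ± 0.89 SE, adjusted p = 0.059, r = 0.22). It stood at 3.17, 19.7 and 78.7 CPM in ligatured WT mice fed a 60% HFD and at 2.48, 0.0644 and 1.21 CPM in WT mice fed a 40% HFD without a ligature. Both this gene and Cyp2a22, a related cytochrome P450, were named by the study. Cyp2a22, with an r of 0.59, had no read in the ND mice and 3.22, 2.67 and 9.06 CPM in the 60% HFD mice, at least 31.1-fold higher by the floor of 3 reads.

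**Figure D5:**
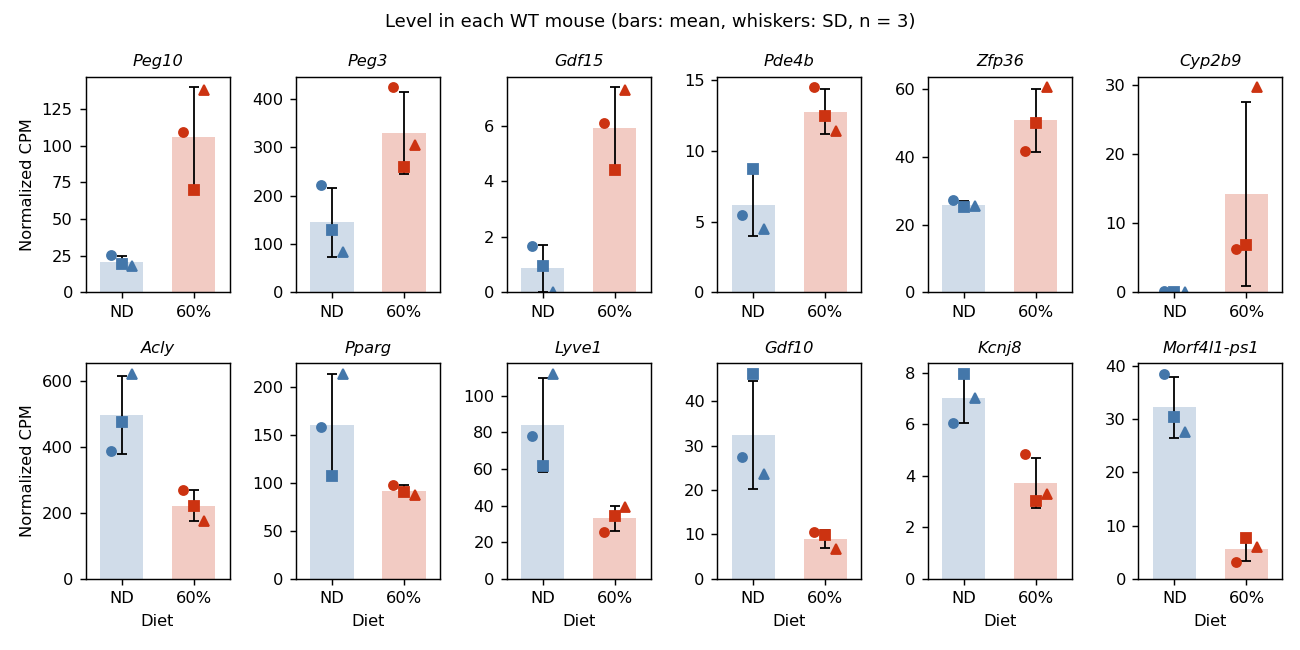
Normalized CPM of 12 genes named in the text outside the liver and kidney groups, in each of 3 ND mice (blue) and 3 mice fed a 60% HFD (red); bars are means and whiskers SD. Peg10 is at 17.8 to 25.3 CPM under the ND and 70.0 to 138 CPM under the 60% HFD, and Acly is at 388 to 622 CPM and 176 to 270.0 CPM.

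The genes that fell were fewer, and of the 402, 141 were still DEGs (lower) without ND replicate 2. All 7 epididymal genes tested were higher in the ND group by the sign of their fold change, 3 were DEGs, and none was without ND replicate 2. Of 8 germ cell genes 3 fell, against 1 without ND replicate 2, 0 of 7 without ND replicate 3 and 8 by edgeR. Prm2, a sperm protamine, stood at 0.435, 9.13 and 43.6 CPM in the ND mice and no read in the 60% HFD mice.

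The largest falls included genes of mucous and olfactory epithelium. Muc5b, a gel-forming mucin, stood at 29.5, 425 and 8.85 CPM in the ND mice and at 0.201, 0 and 0.0768 CPM in the 60% HFD mice (log2 fold change -5.53 ± 1.10 SE, adjusted p = 0.0134). Ltf, which encodes lactoferrin, stood at 5.98, 15.8 and 5.55 CPM and 0.201, 0.0834 and 0.0768 CPM. Omp, the olfactory marker protein gene, stood at 2.99, 95.2 and 1.5 CPM and 0.268, 0.250 and 0.0768 CPM. All 3 were higher in every ND mouse than in any 60% HFD mouse, and the same held for the odorant-binding protein gene Obp2a, at 0.489, 28.6 and 12.9 CPM and 0.134, 0.0834 and 0.154 CPM. The largest falls, like the largest rises, were taken only among DEGs whose groups did not overlap. That separation was thus fixed by the choice. Chosen after their values were seen, Bpifa1, a secreted airway protein, stood at 21.8, 77.5 and 9.20 CPM in the ND mice, Muc5ac, a second mucin, at 6.91, 3.23 and 4.55 CPM, and Reg3g, an antimicrobial lectin, at 4.24, 11.0 and 3.80 CPM, with no read of any of them in the 60% HFD mice. These 3 genes passed the filter on low values only through the ND mice, so a difference was fixed in advance. They were not tested without ND replicate 2. Among the other groups without a ligature, Muc5b passed 1 CPM only in knock-in ND replicate 3 (15.9 CPM). Omp and the predicted gene Gm14744, given below, did so only in knock-in 60% HFD replicate 2 (7.07 and 1.30 CPM). Muc5b, Omp and Gm14744 thus also needed the ND mice to pass the filter, so their calls carry no weight. Outside the WT ND group Bpifa1 had no read in 22 of 33 libraries and reached 81.7 CPM in another.

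Predicted genes and pseudogenes made up most of the other large falls. Gm49450 stood at 22.2, 19.0 and 52.6 CPM in the ND mice and at 0, 0 and 2.00 CPM in the 60% HFD mice (log2 fold change -4.34 ± 0.66 SE, adjusted p = 0.00554). Morf4l1-ps1, a pseudogene, stood at 38.5, 30.4 and 27.7 CPM and 3.15, 7.67 and 5.91 CPM (log2 fold change -2.39 ± 0.43 SE, adjusted p = 0.00775), Gm12751 at 6.91, 4.23 and 5.85 CPM and 0, 0.834 and 0.384 CPM, Gm20431 at 2.17, 6.62 and 6.70 CPM and 1.21, 0 and 1.84 CPM, and Gm14744 at 1.03, 58.5 and 25.9 CPM with no read under the 60% HFD. Reads of a pseudogene can be shared with its parent gene, so these levels are uncertain. Ttn, the giant protein of striated muscle, stood at 78.9, 14.4 and 7.50 CPM and 2.35, 3.09 and 2.00 CPM (log2 fold change -2.66 ± 0.65 SE, adjusted p = 0.0456). Of 8 skeletal muscle genes 3 fell, and 1 did without ND replicate 2 or without any of the 60% HFD mice.

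Gdf10, a BMP family ligand of stromal cells, fell from 27.5, 46.2 and 23.5 CPM to 10.5, 9.84 and 6.76 CPM (log2 fold change -1.70 ± 0.52 SE, adjusted p = 0.145). Kcnj8, a potassium channel of pericytes, fell from 6.04, 7.96 and 7.00 CPM to 4.83, 3.00 and 3.30 CPM (log2 fold change -0.78 ± 0.20 SE, adjusted p = 0.059), and Des, the desmin gene of muscle cells, stood at 20.1, 128 and 16.7 CPM and 9.32, 10.7 and 8.29 CPM, with ND replicate 2 by far the highest. Of 16 progenitor and fibroblast genes 1 rose and 1 fell. Dpp4, a surface peptidase of early progenitors, rose from 103, 87.1 and 93.9 CPM to 125, 162 and 189.5 CPM (log2 fold change 0.72 ± 0.31 SE, adjusted p = 0.361) and was not a DEG without ND replicate 2.

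Whether the effect was particular to a fat content of 60% was asked against the 3 WT mice fed a 40% HFD. No gene differed at an adjusted p under 0.05 by limma, where 582 had an unadjusted p under 0.05 and edgeR also gave 0. The hepatocyte list had a median difference of -0.13 on the log2 scale and the kidney list of 1.31. The smallest p was that of Socs3, a feedback inhibitor of cytokine signalling, at 14.4, 12.8 and 9.17 CPM under the 40% HFD and 5.83, 5.34 and 5.22 CPM under the 60% HFD, a difference of -1.002 ± 0.22 (SE; unadjusted p = 0.000401 by limma). Adra1d, an adrenergic receptor, differed by 1.06 ± 0.24, the glucuronosyltransferase gene Ugt2b37 by 1.22 ± 0.30 and the predicted gene Gm17494 by -0.83 ± 0.20 (SE). These values share the 60% HFD mice with the main comparison. Ugt2b37 passed the filter on low values only through the WT mice fed a 60% HFD, so its difference carries no weight.

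The same diet contrast differed between genotypes. By limma's interaction test the 60% HFD effect was more positive in WT than in knock-in mice for 925 genes and more negative for 532 at an adjusted p under 0.05, or 5.47% and 3.14% of the 16923 tested. Without the 2 libraries at odds with their genotype label the counts were 445 (2.71%) and 230 (1.4%). Of the 17 hepatocyte genes 16 differed, with a median difference of 13.36 on the log2 scale, and of 11 kidney genes 8. Alb stood at 397, 11700 and 13700 CPM in knock-in mice fed an ND and at 444, 889.6 and 6.38 CPM in those fed a 60% HFD, with 1 ND mouse inside the range of the 60% HFD mice. The smallest adjusted p belonged to Mup7 (9.24e-05), followed by Mup14, Mup19 and the predicted gene Gm49337, which stood at 0.652, 1.17 and 1.15 CPM in the WT ND mice and 0, 0 and 0 CPM in the WT mice fed a 60% HFD. Gm49337 passed the filter on low values only through the WT ND and knock-in 60% HFD mice, so its call carries no weight.

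Between WT mice with and without a ligature the 60% HFD effect differed for no gene at an adjusted p under 0.05 by limma and by edgeR, where 1728 genes had an unadjusted p under 0.05. The 4 smallest p-values, all with an adjusted p of 0.166, were those of Rhou, a small GTPase, Slc22a5, the carnitine transporter, and the predicted genes Gm45061 and Gm49450. Rhou stood at 21.6, 25.8 and 25.7 CPM and 40.1, 52.8 and 70.3 CPM under the ND and 60% HFD without a ligature, and at 65.0, 63.9 and 58.0 CPM and 44.2, 44.5 and 47.7 CPM with one. Slc22a5 stood at 30.3, 22.1 and 24.8 CPM and 42.2, 44.2 and 65.5 CPM without a ligature, and at 48.9, 50.9 and 36.5 CPM and 38.5, 37.0 and 35.0 CPM with one. The median difference of the hepatocyte list was 6.84 on the log2 scale, with none of its 17 genes past the threshold.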

How the data were processed

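Total RNA of mouse eWAT was depleted of ribosomal RNA and sequenced from strand-marking libraries. Per the submitters' processing notes the authors used Trimmomatic 0.38, RSEM 1.3.0 with Bowtie2, and edgeR. The notes name GRCm39 and the methods mm10, and the annotation release is not given in the sources used here. The deposited signal is a normalized count (CPM) for 24750 genes. Every value was a whole multiple of 1 read within a tolerance of 0.01 (100% of values), so whole reads were recovered for the edgeR alternative.

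Genes with at least 1 CPM in 3 or more of the 18 libraries without a ligature were kept (16923, 68.4%), and log2(CPM + 1) of these libraries was fitted by group with limma 3.58.1 (trend, R 4.3.3). The contrast with ligatured mice used all 36 libraries. Alternatives were edgeR 4.0.16 (quasi-likelihood), other pseudocounts, filters and scalings, a replicate block, and leaving out each mouse. The hepatocyte level as a covariate and the joint removal of both libraries at odds with their label were added after the data were seen. Of each of 48 gene lists up to 4 genes are named (DEGs by smallest p, then defining genes), together with genes the study names and the 12 largest rises and falls and the 4 smallest p-values of each difference test. The members and lists were chosen with earlier results of these data known. Tests across genes were tested on simulated data. Each gene was drawn on its own there, so the simulation lacked the liver transcripts that vary together between mice. A few genes that the naming rule covers are not reported here. Floors of 3 reads cover counting error only.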

Additional observations from a re-analysis of the deposited data

Results flagged for a closer look

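For 46 of 94 genes named in the text and tested, the 60% HFD effect differed between WT and knock-in mice without a ligature at an adjusted p under 0.05 by limma's interaction test. Each value is the log2 fold change in WT mice minus that in knock-in mice. Among liver genes the difference was 18.88 for Mup7, 16.75 for Mup19, 16.33 for Mat1a, 15.94 for Apob, 15.80 for Mup14, 15.50 for Serpina1c, 15.39 for Bhmt, 15.33 for Mug1, 15.32 for Mup22, 15.28 for Alb, 14.33 for Apoa1, 13.80 for Apoa2, 13.36 for Fgb and 12.35 for Fga. For plasma protein, detoxification and hepatocyte factor genes it was 11.19 for Itih4, 10.51 for Slc27a2, 9.07 for Crp, 8.71 for Saa4, 8.18 for Cfi, 7.98 for Prox1, 6.60 for Onecut1 and 1.92 for Ugt2b37. Kidney tubule genes differed by 8.85 for Kap, 7.23 for Slc34a1, 4.33 for Miox and 4.25 for Slc22a6.

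For genes of lipid metabolism the difference was 8.33 for Acot3, 7.54 for Elovl3, 6.07 for Ppara, 2.62 for Elovl5, 1.97 for Slc25a20, 1.59 for Slc22a5 and -2.31 for Acly. Genes with a negative value, whose WT effect was the lower, were led by -7.80 for Prm2, -5.64 for Gm49450, -5.18 for Ltf, -5.04 for Bpifa1, -4.33 for Gm14744, -2.79 for Reg3g, -2.60 for Muc5ac, -2.52 for Morf4l1-ps1 and -2.14 for Gm49337. The remaining genes differed by -2.04 for Bhlhe41, 1.41 for Col18a1, 1.72 for Rhou and 1.08 for Zfp36.

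Without WT ND replicate 2 and knock-in 60% HFD replicate 3, the libraries at odds with their genotype label, 29 of the 46 stayed under an adjusted p of 0.05, among them Alb, Apob, Slc34a1 and Rhou but not Kap, Ppara, Acly or Zfp36. Bpifa1, Muc5ac and Reg3g did not pass the filter on low values there, and with all libraries they passed it only through the WT ND mice, so that their calls were fixed by the filter and carry no weight. Gm14744 also needed the WT ND mice to pass the filter, so its call carries no weight either. Ugt2b37 needed the WT mice fed a 60% HFD to pass it, and its call carries no weight. Gm49337, Prm2 and Ltf passed the filter only with the help of the WT ND and knock-in 60% HFD mice. Both groups enter this difference with a negative sign, so the negative calls of these genes carry no weight. Mup7, Mup14, Mup19 and Gm49337 were named for the smallest p in this same test, and the count of 46 is therefore partly fixed by selection. Over all genes tested 5.47% were called with a positive and 3.14% with a negative difference. The mean log2 hepatocyte level spanned 1.48 to 10.71 in the knock-in mice of this contrast.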

How the results depend on the processing

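The DEG count of 1558 lay between 1067 and 2243 under other pseudocounts, filters, scalings and fits, and between 1028 (without 60% HFD replicate 3) and 1940 when each mouse was left out. Quantile normalization gave 1013 higher and 684 lower and edgeR 1282 and 961, against 1156 and 402. The 380 genes at an adjusted p under 0.05 became 142 with a pseudocount of 5, 689 with only the groups compared, 608 with all 36 libraries, 200 without both libraries at odds with their genotype label, 62 to 382 when each mouse was left out, and 0 with the hepatocyte level as a covariate, where 1623 genes had an unadjusted p under 0.05. The covariate separated the ND from the 60% HFD mice without overlap, so no conclusion is drawn from its 0. For 60% HFD against 40% HFD the covariate gave 1 gene, against 0. For the difference between WT and knock-in mice, 1457 became 2664 by edgeR, 3887 with all 36 libraries, 675 without both libraries, 0 with the covariate, and 561 to 2850 when each mouse was left out. For the ligature difference, 0 became 127 with only the groups compared, and 0 to 23 when each mouse was left out.

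Of 79 DEGs named in the text, 1374 of 1550 values under alternatives stayed past the DEG threshold in the same direction, 156 kept the direction only and 20 reversed. All 20 reversals came from the covariate: -0.70 for Bhmt, -0.63 for C3, -0.12 for Cfi, -0.73 for Crp, -0.19 for Cyp2a22, 0.34 for Dio2, -0.91 for Elovl3, -0.76 for Elovl5, -0.91 for Fga, 0.13 for Gm20431, -0.26 for Hsd17b7, -0.73 for Itih4, -1.04 for Mat1a, -2.69 for Onecut1, -2.65 for Plin5, -1.27 for Ppara, -1.86 for Prox1, -0.30 for Saa4, -0.12 for Slc25a20 and -0.34 for Usp18. The cause was not tested.

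Same-numbered mice of different groups did not deviate together in every pair (correlations of 0.265, 0.182 and -0.021), so the numbers were not taken as pairs, and the replicate block gave 1586 DEGs and 365 genes at an adjusted p under 0.05, 1368 for the WT and knock-in difference and 0 for the other differences. With 3 mice a group, genes of few reads, such as those near 0.05 CPM, were measured at the limit of depth.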
